A study of Oryza sativa Japonica Group with 4 samples.

Results

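CHH hyper-DMRs that already carried moderate CHH methylation before the enzyme treatment are described here. A hyper-DMR is a stretch of the rice genome in which the mean cytosine methylation level was higher after treatment of genomic DNA with M.CviP I than in the corresponding untreated DNA (CK), and CHH is a cytosine followed by 2 bases that are not G. Members were chosen by 2 measured values, the listing as a CHH gain and a mean level in CK of at least 0.1 and below 0.2, on a scale on which 0 means that no read and 1 that every read was methylated. This gave 64219 of 656623 CHH hyper-DMRs (9.78%), out of 1245898 regions in the lists of gains and losses together. They were compared with the 563148 CHH hyper-DMRs below 0.1 in CK (85.8%) and with the 29256 from 0.2 up (4.46%).

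The libraries came from Nipponbare rice (Oryza sativa, Japonica), with 1 bisulfite library for each of 4 conditions. In the enzyme comparison, 4 μg of DNA purified from seedlings aged 2 weeks was kept with M.CviP I (8 units) and its methyl donor SAM (640 μM) for 1 h at 37°C, and CK was genomic DNA labelled untreated. In the other comparison, living seedlings aged 5 days received 80 μM zebularine, an inhibitor of DNA methyltransferases, in DMSO for 5 days, and their CK seedlings received DMSO only. The labels name no mutant or transgene in any group. The enzyme was applied to purified DNA, so its gains are not changes in a living plant.

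In plants, cytosines are methylated in the CG, CHG and CHH contexts by different enzymes. CG methylation is copied after replication by MET1, CHG methylation is kept up by chromomethylases, and CHH methylation, which is not symmetrical between the strands, is placed anew by DRM2 under the guidance of small RNAs or by CMT2 in heterochromatin. In rice, CHH methylation depends strongly on OsDRM2 and is known from short transposable elements near genes. CHH levels averaged over a region are usually far lower than CG levels in the same place. M.CviP I is a viral methyltransferase known to act on cytosines that follow a G, although the labels call it a CpG methyltransferase. Which cytosines of a region follow a G, and whether the members lie in genes or transposons, was not analysed here.

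With 1 library per condition there is no replicate, so no difference between libraries or between groups of regions has a test of treatment, and no SD over samples can be given. The spread quoted below is that over regions, as quartiles, or the range over the 12 chromosomes. Neighbouring regions share reads and sequence and are no replicates. The depth behind each level is unknown beyond the 3 reads per cytosine that the methods require, so no error can be given for the level of any one region.

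The members went from a median level of 0.133 in CK (quartiles 0.114 and 0.160) to 0.427 after M.CviP I (quartiles 0.360 and 0.506). The difference between treated DNA and CK had a median of 0.288 and quartiles of 0.220 and 0.368. The CK range and the listing as a gain chose the members, so these levels describe the choice and test nothing. In 35259 members (54.9%) the treated level was more than 3 times that in CK, which was counted for members only. In 17023 members (26.5%) the treated level reached 0.5 or more, against 54.9% of regions below 0.1 in CK and 57.4% from 0.2 up. A gain of less than 0.2 was found in 11767 members (18.3%), against 2.13% below 0.1 and 34.4% from 0.2 up. The members therefore gained methylation over a broad range, and a minority lay near the minimum difference of 0.1.

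Of the 3 groups of CK level, the members had the lowest median treated level. The median treated level was 0.519 in regions below 0.1 in CK (quartiles 0.420 and 0.629) and 0.520 in regions from 0.2 up (quartiles 0.452 and 0.595). Both medians exceeded the 0.427 of the members, although the 3 groups overlapped widely in their quartiles. On the 12 chromosomes, the medians of the members lay between 0.419 and 0.433. Those of regions below 0.1 lay between 0.501 and 0.546, and those of regions from 0.2 up between 0.502 and 0.529. All chromosomes come from the same pair of libraries, whose levels also set the groups, so this is a description and no test. A listed region also had to reach its CK level plus 0.1. Regions below 0.1 were mixed, with 0.606 at CK levels below 0.02 and 0.425 from 0.08 to 0.1, close to the members. When the gain was expressed as a share of the methylation that was still missing in CK, the members gained a median of 0.335, against 0.503 below 0.1 and 0.328 from 0.2 up. By this measure the members were close to the more methylated regions, with quartiles of 0.256 and 0.426 against 0.255 and 0.416.

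**Figure D1:**
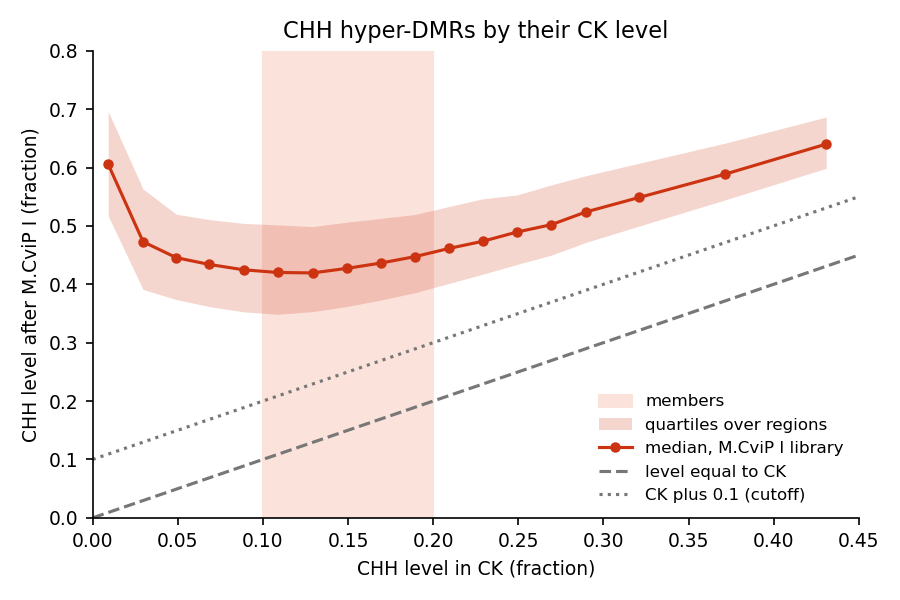
CHH level after M.CviP I (vertical axis, fraction) against the CHH level in CK (horizontal axis, fraction) for all CHH hyper-DMRs with a CK level below 0.5, in intervals of CK level. Points are medians, the band shows quartiles over regions, the shaded strip marks the members and the dotted line the smallest treated level a listed region can have. The treated level lay at its lowest, 0.420, between CK levels of 0.1 and 0.14 and was higher on either side.

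Within the members the treated level hardly moved with the CK level. In intervals of CK level it was 0.420 from 0.1 to 0.12 (21960 regions), 0.420 from 0.12 to 0.14 (15103 regions), 0.427 from 0.14 to 0.16 (11314 regions), 0.436 from 0.16 to 0.18 (8745 regions) and 0.448 from 0.18 to 0.2 (7097 regions). The difference accordingly became smaller, from 0.311 in the first interval to 0.258 in the last. More members lay near the lower edge than near the upper edge. Regions just inside the lower edge, with CK levels from 0.1 to 0.11, had a median treated level of 0.421, and those just outside it, from 0.09 to 0.1, one of 0.423. At the upper edge the values were 0.449 from 0.19 to 0.2 and 0.458 from 0.2 to 0.21. Neither edge marks a step, so the members are a section of a continuous range of CK levels.

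The regions nearest to the edges show how varied single regions are. In the authors' table, the region at 0.0999 in CK lies on chromosome 1 from 6381165 to 6381625 and reached 0.426 over 67 cytosines. The first member at a CK level of 0.1 lies on chromosome 1 from 942156 to 942174 and reached 0.828, but over 5 cytosines only. At the other end, the member at 0.1999 lies on chromosome 1 from 1786445 to 1786938 and reached 0.327 over 99 cytosines. The first region at a CK level of 0.2 lies on chromosome 1 from 6257269 to 6257657 and reached 0.762 over 32 cytosines.

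Members were rich in CHH cytosines. They held a median of 74 CHH cytosines (quartiles 56 and 90), against 53 below 0.1 in CK and 83 from 0.2 up. Their length hardly differed, with medians of 495 bp, 493 bp and 496 bp in the same order, since region length in the lists has a fixed upper limit and 85.5% of the members were at least 450 bp long. Per 100 bp, members held a median of 15.4 CHH cytosines, regions below 0.1 held 11.1 and regions from 0.2 up held 17.2. On each chromosome the median number of cytosines was 72 to 74 in members, 52 to 54 below 0.1 and 81 to 84 from 0.2 up, so the 3 ranges did not overlap. The number nevertheless rose without a step at the lower edge. It was 48 at CK levels below 0.02, 67 from 0.08 to 0.1, 70 from 0.1 to 0.12 and 79 from 0.18 to 0.2.

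The number of cytosines moved with the treated level, and the comparison was therefore repeated at equal numbers. Among regions with 20 to 39 cytosines, members had a median treated level of 0.522, against 0.598 below 0.1 and 0.605 from 0.2 up. With 60 to 79 cytosines the medians were 0.431, 0.463 and 0.540. With 80 to 99 cytosines they were 0.395, 0.4003 and 0.508, and with 100 to 119 cytosines 0.367, 0.368 and 0.478. Members minus regions below 0.1 thus gave -0.0752 among regions with few cytosines and -0.0011 among those with many, whereas members minus regions from 0.2 up stayed between -0.0829 and -0.114. The share of the missing methylation that was gained stayed lower in members than below 0.1 at each number of cytosines, from 0.449 against 0.586 at 20 to 39 to 0.261 against 0.325 at 100 to 119.

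**Figure D2:**
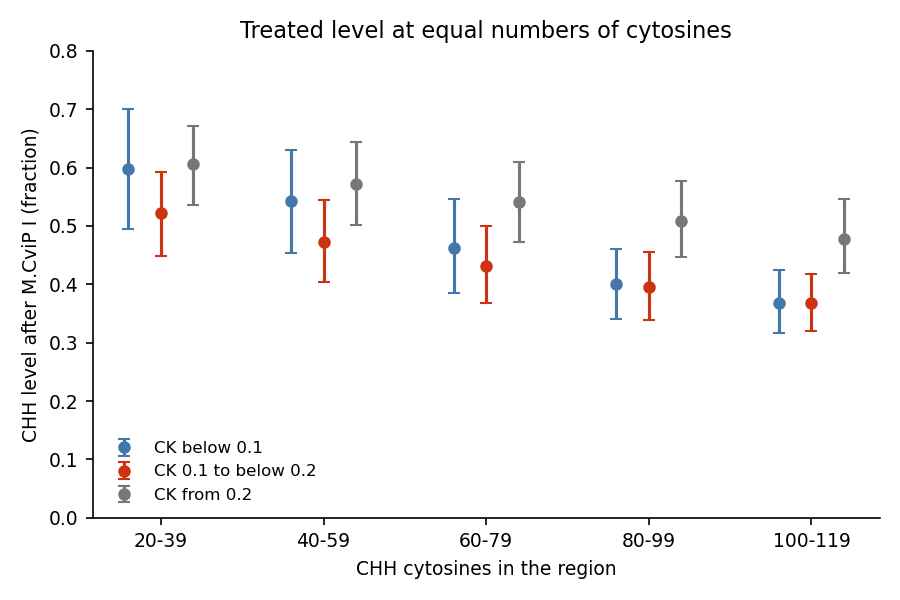
CHH level after M.CviP I (vertical axis, fraction) for regions with equal numbers of CHH cytosines (horizontal axis), split by CK level. Points are medians and bars the quartiles over regions. With 100 to 119 cytosines the median of the members, 0.367, lay beside the 0.368 of regions below 0.1 in CK, and regions from 0.2 up lay higher at 0.478.

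How evenly methylation was spread within a region can be read from the variance between its cytosines. The variance was taken from the t statistic of the authors' region test and divided by the largest value that the levels of both libraries allow, so that 1 means cytosines that are either fully methylated or unmethylated and 0 means cytosines of equal level. Members had a median of 0.512 (quartiles 0.458 and 0.563), regions below 0.1 in CK 0.709 and regions from 0.2 up 0.469. By this measure members were more even than regions below 0.1 taken as a whole. They were so at each number of cytosines, with 0.549 against 0.718 at 20 to 39 and 0.461 against 0.593 at 100 to 119. The lower edge marked no step here either. The median was 0.765 at CK levels below 0.02, 0.558 from 0.09 to 0.1 and 0.543 from 0.1 to 0.11, so evenness was not particular to members. Of the members, 98.5% lay above 0.333, the average that sampling of 3 reads alone would give to cytosines of equal level. Below 0.1 in CK this was so in 99.4% and from 0.2 up in 93.8%, so it was not particular to members. The measure mixes the CK and the treated library, comes from the same contrast as the choice of members and depends on the unknown read depth, whose part in it was not tested.

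The gains in the other contexts came from the same libraries and are given as descriptions. A CHG hyper-DMR shared at least 1 base with 23623 members (36.8%, exact 95% binomial interval 36.4 to 37.2), against 51.3% of all CHH hyper-DMRs. The share was 52.7% below 0.1 in CK and 55.7% from 0.2 up, so members stood below both groups taken as wholes. The lowest shares lay outside the members, however. They were 24.1% at CK levels from 0.06 to 0.08 and 26.9% from 0.08 to 0.1, whereas regions below 0.02 had 78.2%. A CG hyper-DMR shared bases with 11475 members (17.9%, interval 17.6 to 18.2), against 20.5% of all CHH hyper-DMRs. Here the share was 19.9% below 0.1 and 37.8% from 0.2 up. The binomial intervals cover the counting of regions only and treat neighbouring regions as independent, which they are not.

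These shares depended on the number of cytosines. For CHG, members stood lower than regions below 0.1 with 20 to 39 cytosines, at 25.9% against 58.2%, and higher with 80 to 99 cytosines, at 37.4% against 23.1%. For CG, they stood lower with 20 to 39 cytosines, at 13.7% against 32.9%, and higher with 60 to 79 cytosines, at 23.1% against 10.6%. No direction can therefore be given for members against regions below 0.1 without naming the number of cytosines. Against regions from 0.2 up, members had the lower share of both contexts at each number of cytosines.

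Of the members, 37674 (58.7%) lay clear of all CG and CHG hyper-DMRs, so that in most of them CHH was the only context listed as a gain. This was so in 45.1% of all CHH hyper-DMRs, 44.1% below 0.1 in CK and 34.9% from 0.2 up. It was not particular to members. At CK levels from 0.08 to 0.1, only 26.9% of the regions shared bases with a CHG and 10.1% with a CG hyper-DMR. The 37674 members with CHH alone had a median treated level of 0.408. A CHG hyper-DMR alone was found in 15070 members (23.5%), with a treated level of 0.441, and a CG hyper-DMR alone in 2922 members (4.55%), with 0.426. Both contexts were found in 8553 members (13.3%), and these had the highest treated level, 0.498, with quartiles of 0.422 and 0.578. They also held fewer CHH cytosines, a median of 68 against 75 with CHH alone. The order was not particular to members, since regions with both contexts had 0.659 against 0.446 with CHH alone below 0.1, and 0.582 against 0.473 from 0.2 up. Over all CHH hyper-DMRs, CHG alone made up 34.5%, CG alone 3.63% and both contexts 16.8%. The CK level of the members differed little between these classes, from 0.129 with CHH alone to 0.144 with both.

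Most CG and CHG hyper-DMRs in members had less than 0.1 in CK (53.7% and 51.7%), but their median CK levels were above those in regions below 0.1. The 11829 CG hyper-DMRs that shared bases with members had a median level of 0.0764 in CK and 0.706 after treatment, whereas those in regions below 0.1 started from 0.0123 and reached 0.714. For the 25531 CHG hyper-DMRs in members the levels were 0.0918 and 0.679, against 0.0122 and 0.677 in regions below 0.1. Regions from 0.2 up shared this trait, with CK medians of 0.0873 for CG and 0.0892 for CHG. Of the partners in members, 6.60% of the CG and 11.3% of the CHG hyper-DMRs had 0.5 or more in CK. The treated levels were thus nearly the same while the CK levels were not, and the quartiles of the CG partners in CK, 0.011 and 0.256, show that some started unmethylated and others well methylated. These partners made up 10.2% of all CG and 9.0% of all CHG hyper-DMRs.

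**Figure D3:**
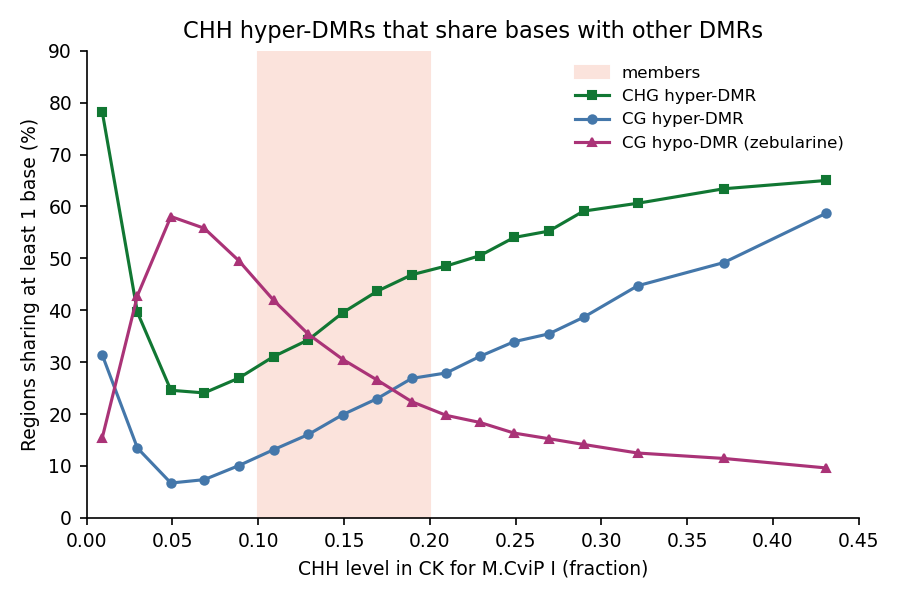
Percent of CHH hyper-DMRs that share at least 1 base with another DMR (vertical axis) against their CHH level in CK for M.CviP I (horizontal axis, fraction). Lines stand for CHG hyper-DMRs, CG hyper-DMRs and CG hypo-DMRs after zebularine, and the shaded strip marks the members. Within the strip, sharing with CHG hyper-DMRs went from 31.1% to 46.8%, sharing with CG hyper-DMRs from 13.1% to 26.9%, and sharing with CG hypo-DMRs from 41.9% to 22.4%.

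The zebularine libraries played no part in the choice of members. A CG hypo-DMR, a region that lost CG methylation in zebularine-treated seedlings, shared bases with 21914 members (34.1%, interval 33.8 to 34.5), which is close to the 33.5% of all CHH hyper-DMRs and to the 34.4% of regions below 0.1 in CK. Regions from 0.2 up had 15.4%. A share this near to that of the whole list is no result about the members, but within them it varied with the CK level. With increasing CK level the share went from 41.9% (0.1 to 0.12) over 35.4% (0.12 to 0.14), 30.5% (0.14 to 0.16) and 26.5% (0.16 to 0.18) to 22.4% (0.18 to 0.2). The highest shares, 58.1%, lay below the members, at CK levels from 0.04 to 0.06. The likeness to regions below 0.1 also held only for all numbers of cytosines together. Members had the higher share with 20 to 39 cytosines (46.1% against 30.6%) and 40 to 59 (35.6% against 29.0%), and the lower share with 60 to 79 (28.4% against 41.6%), 80 to 99 (31.8% against 52.8%) and 100 to 119 (39.7% against 52.6%).

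The CG hypo-DMRs found in members were nearly fully methylated in the DMSO control, with a median level of 0.956 (quartiles 0.936 and 0.970), and had 0.806 after zebularine. This was not particular to members. The medians were 0.95 and 0.7885 for those in regions below 0.1 in CK, and 0.94 and 0.772 for those in regions from 0.2 up. Members with a CG hypo-DMR and no CG hyper-DMR numbered 20365 (31.7%), with a median CHH level of 0.125 in CK and 0.426 after M.CviP I. Those with a CG hyper-DMR and no CG hypo-DMR numbered 9926 (15.5%), with 0.144 and 0.483. Both kinds lay in 1549 members (2.41%), and 32379 (50.4%) held no CG region of either list. Over all CHH hyper-DMRs these classes made up 32.1%, 19.1%, 1.39% and 47.4% in the same order, so the shares of the members lay within a few percentage points of the whole list.

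CHH hypo-DMRs were few, but they were found more often in members than in the list as a whole. They shared bases with 953 members (1.48%, interval 1.39 to 1.58), against 0.692% of all CHH hyper-DMRs, 0.586% below 0.1 in CK and 0.984% from 0.2 up. Regions just below the members had a similar share, 1.405% at CK levels from 0.08 to 0.1, whereas those below 0.02 had 0.224%. A loss of at least 0.1 needs at least 0.1 in the DMSO control, so this listing itself depends on the CHH level. On the 12 chromosomes the share lay between 1.04% and 1.74% in members and between 0.497% and 0.705% below 0.1, so these ranges did not overlap. The range from 0.2 up, 0.673% to 1.67%, overlapped that of the members, and when at least 50% of the member's length had to be shared, the members exceeded regions from 0.2 up by only 0.0655 percentage points. At equal numbers of cytosines the share stayed higher in members than below 0.1, from 1.72% against 0.685% at 20 to 39 to 0.914% against 0.487% at 100 to 119. CHG hypo-DMRs shared bases with 664 members (1.03%), against 0.846% of all CHH hyper-DMRs.

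The CHH hypo-DMRs also give a second reading of the CHH level in untreated DNA, from the DMSO control. Over 961 pairs of a member and a CHH hypo-DMR that shared bases, the median level was 0.131 in CK for M.CviP I and 0.230 in the DMSO control, with quartiles of 0.184 and 0.295 in the latter. The level in the DMSO control was the higher one in 907 pairs (94.4%), against 78.7% from 0.2 up. Below 0.1 in CK it was so in 100%, but this was fixed in advance, because a listed loss needs at least 0.1 in the DMSO control. In 311 pairs of members (32.4%) the level in the DMSO control too lay between 0.1 and 0.2. This was so more often below 0.1, in 2443 pairs (73.8%), and less often from 0.2 up, in 35 pairs. A listed loss needs at least 0.1 in the DMSO control, so the 32.4% does not show that both controls gave members the same level. Regions below 0.1 in CK gave 0.167 in the DMSO control over 3311 pairs, and regions from 0.2 up gave 0.353 over 291 pairs, so both controls put the 3 groups in the same order. Across the pairs of members, Pearson's r was 0.32 and Spearman's rho 0.32. The hypo-DMRs were selected for a high level in the DMSO control, the shared stretch is often only part of either region, and the controls differ in the age and handling of the seedlings, so the offset cannot be told apart from these.

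Most neighbours of members lay below 0.1 in CK, but raised CK levels were more frequent beside members than beside regions below 0.1. The next listed CHH hyper-DMR, about 504 bp away, was itself a member in 24.9% of the 53949 members that had one. It had a CK level below 0.1 in 65.4% and from 0.2 up in 9.64%. At the sixth region, about 3078 bp away, these percentages were 12.5%, 82.1% and 5.40%. Around regions below 0.1 in CK, the next region was a member in 6.95% of cases, and around regions from 0.2 up in 21.2%, so having a member as neighbour was not particular to members. The median CK level went from 0.133 in the member to 0.0700 in the next region, 0.0495 in the one after it and 0.0338 in the sixth, and the upstream side gave 0.0700, 0.0497 and 0.0332. Most of the decline in CK level thus lay within the next 2 regions, and the level of the member itself is fixed by the choice. The treated level went the other way, from 0.427 in the member to 0.470 in the next region and 0.504 in the sixth. Most of these neighbours belong to the group below 0.1 in CK, whose median treated level was 0.519. The rise away from members therefore cannot be told apart from the choice of groups. Around regions below 0.1 the treated level fell, from 0.519 in the region to 0.507 in the next. Around regions from 0.2 up it hardly moved, with 0.520 in the region and 0.527 in the next.

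**Figure D4:**
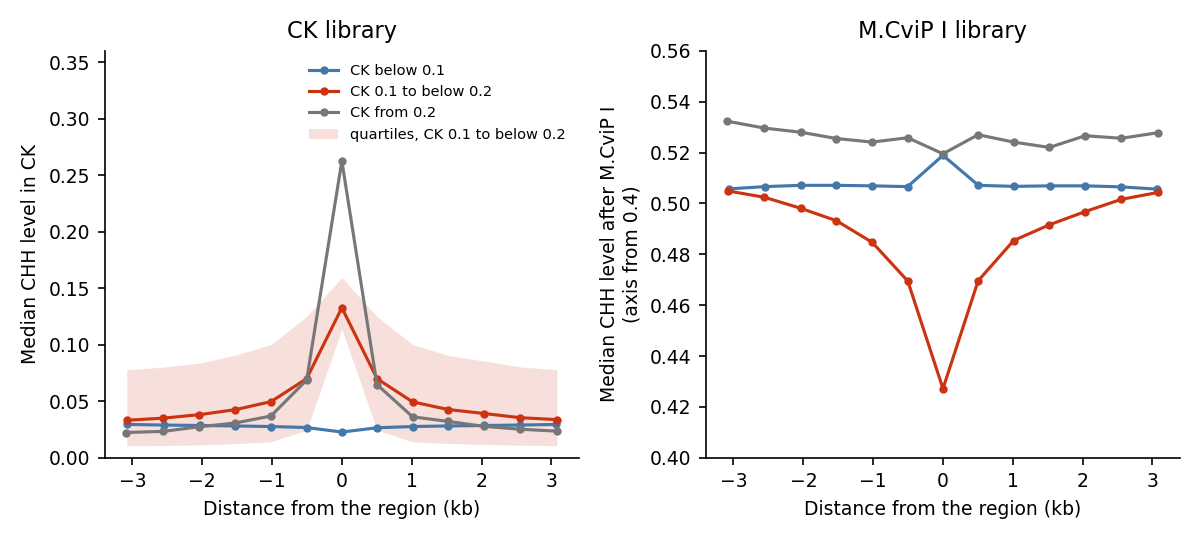
Median CHH level in CK (left) and after M.CviP I (right, axis from 0.4) in CHH hyper-DMRs up to 6 listed regions away, against their distance (horizontal axis, kb), for the 3 groups of CK level. The shaded band on the left shows quartiles over regions around members. Around members the CK level had a peak of 0.133 and the treated level a trough of 0.427 at the region itself. The peak is fixed by the choice of members, and the trough cannot be told apart from it.

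Most members had no other member as a direct neighbour within 100 bp. When neighbouring members at most 100 bp apart were joined, 51861 runs were left, of which 42121 held 1 member, 7811 held 2, 1477 held 3 and 452 held 4 or more. Members in runs of 4 or more had a CG hypo-DMR in 45.8% of cases and a CHG hyper-DMR in 24.7%, against 33.0% and 38.0% in single members, while the treated level, 0.425 against 0.4304, hardly differed. The longest run covered 7098 bp on chromosome 6, from 14901511 to 14908608. In the authors' table, its 14 members had CK levels from 0.106 to 0.172 and treated levels from 0.364 to 0.599, over 1189 CHH cytosines. The run after it held 12 members over 6044 bp on chromosome 1, from 38547552 to 38553595, with treated levels from 0.367 to 0.536.

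The flanks differed as well. In 16395 members (25.5%) the nearest listed regions on both sides, within 100 bp, were below 0.1 in CK, and these members had a median treated level of 0.403. In 4727 members (7.36%) no CHH hyper-DMR was listed within 100 bp on either side, and their treated level was 0.529. These isolated members held a median of only 32 CHH cytosines, and members with few cytosines had high treated levels in general, as shown above. Members with regions from 0.2 up on both sides were rare (582, or 0.906%). They had the highest share with CG hyper-DMRs among these classes, 37.6%, and the lowest with CG hypo-DMRs, 16.5%.

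Members were found on all chromosomes and covered 29.7 Mb, or 7.96% of the chromosome length of 373 Mb, which was taken from the largest region end of each chromosome. They made up 11.1% of the CHH hyper-DMRs on chromosomes 1 and 3 and 8.07% on chromosome 12. Per Mb, chromosome 3 held 197 members and chromosome 12 held 143. In windows of 1 Mb the differences were wider. Over 378 windows with at least 200 CHH hyper-DMRs, the share of members had a median of 10.0% (quartiles 8.01 and 11.6) and ranged from 3.35% on chromosome 5 between 12 and 13 Mb to 15.4% on the same chromosome between 20 and 21 Mb. Of the 20 windows with the lowest shares, 8 lay on chromosome 4, where the stretch from 1 to 18 Mb had 3.70% to 8.25% and the stretch from 18 Mb to the end 8.83% to 13.5%.

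Windows with many members had few CG hypo-DMRs. The 20 windows with the lowest shares of members held a median of 769.5 CG hypo-DMRs (506 to 966), and the 20 with the highest shares held 353.5 (171 to 473), so these ranges did not overlap. Across the 378 windows, Pearson's r between the share of members and the number of CG hypo-DMRs was -0.75 and Spearman's rho -0.70. The share of members went with that of regions from 0.2 up, with an r of 0.78 and a rho of 0.79. Neighbouring windows and counts from the same list are not independent, and the second pair shares its denominator. At the scale of single regions the relation was another one, since members, over all numbers of cytosines together, shared bases with CG hypo-DMRs about as often as all CHH hyper-DMRs did.

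**Figure D5:**
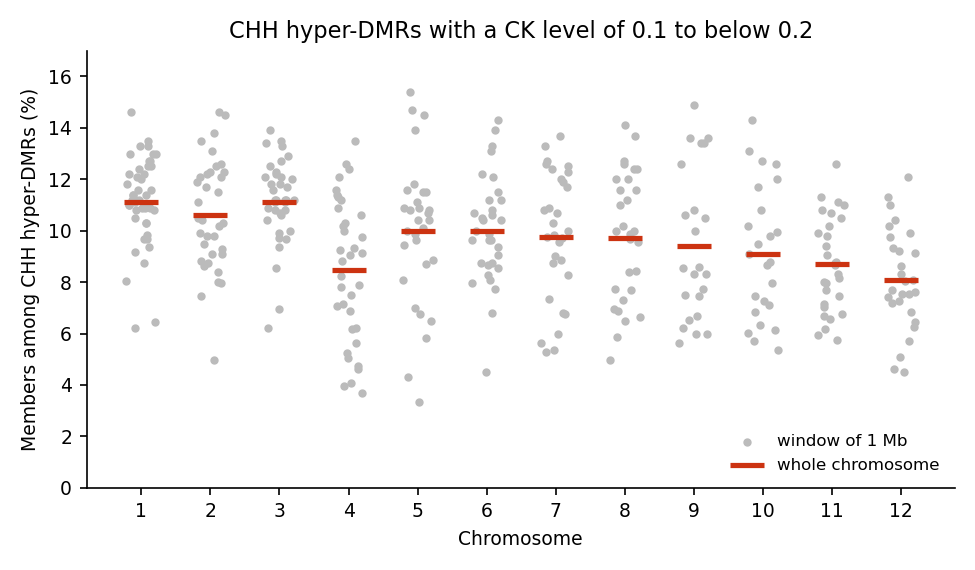
Share of members among CHH hyper-DMRs (vertical axis, percent) on each of the 12 chromosomes (horizontal axis). Grey points are windows of 1 Mb with at least 200 CHH hyper-DMRs and red lines whole chromosomes. Whole chromosomes lie between 8.07% and 11.1%, windows between 3.35% and 15.4%.

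Single members are named below for extreme values, so they are not typical of their classes. The largest difference, 0.900, belongs to a region on chromosome 4 from 21280472 to 21280637, with levels of 0.1 in CK and 1 after treatment, but it rests on 6 cytosines. It shares 124 bp with a CG hypo-DMR with 0.963 in the DMSO control and 0.854 after zebularine. The first member with the smallest difference, 0.1, lies on chromosome 1 from 43010732 to 43011228, with levels of 0.109 and 0.209 over 99 cytosines. The extremes of the members thus include a short region with few cytosines and a long one with many.

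Among members with at least 20 cytosines, the smallest p-value of the authors' region test without any other DMR in the region, 1.96e-25, belongs to chromosome 1 from 28027313 to 28027804. In the authors' table, its level went from 0.113 to 0.594 over 121 cytosines. With CHG hyper-DMRs alone, the smallest p-value, 6.35e-31, belongs to chromosome 11 from 4608342 to 4608842, where CHH went from 0.111 to 0.786 over 84 cytosines. It shares bases with 2 CHG hyper-DMRs, which went from 0.0340 to 0.659 and from 0.1 to 0.633. With gains in all contexts, a member on chromosome 3 from 8075311 to 8075711 went from 0.153 to 0.864 over 61 cytosines, while CG went from 0.0250 to 0.890 and CHG from 0.0088 to 0.726 in the regions it holds. The CG hyper-DMR covers 136 bp and the CHG hyper-DMR shares 302 bp with the 401 bp of the member, and CG and CHG levels in its remaining bases are unknown. The upper quartile of the treated level was 0.471 among members without any other DMR and 0.578 among those with both contexts. The members named for these classes lay above it.

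Other members shared bases with losses after zebularine. Of those with a CG hypo-DMR, the one with the smallest p-value is on chromosome 10 from 14247886 to 14248385. In the authors' table, its CHH level went from 0.126 to 0.678 with M.CviP I, over 104 cytosines, and the CG hypo-DMR there went from 0.969 to 0.837 with zebularine. For CHH hypo-DMRs, the corresponding member lies on chromosome 7 from 12968618 to 12969112 and went from 0.136 to 0.561 over 126 cytosines. The CHH hypo-DMR beside it went from 0.299 to 0.163 with zebularine, but shares only 45 bp with the member, so both controls were read over mostly different cytosines there. The p-values describe the spread between cytosines within 1 pair of libraries and carry no biological replicate.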

How the data were processed

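Each of 4 conditions had 1 BS-seq library. According to the methods, the authors used Fastp for trimming and Bismark for alignment to the MSU7.0 genome (versions not given in the sources used here), kept positions with at least 3 reads and called regions with CGmapTools at P < 0.01 and a difference of at least 0.1. The levels are deposited as a fraction, together with a p-value without adjustment from the authors' test of each region and its t statistic, here called a score. The lists have no header. Column 6 was read as the treated and column 7 as the CK level, from the direction each list is named for. The deposited number of cytosines is a count of positions, not of reads. Coordinates are those of the lists.

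Members were CHH hyper-DMRs with a CK level of at least 0.1 and below 0.2. Regions overlapped from 1 shared base. Neighbours were listed CHH hyper-DMRs whose starts lay within 600 bp per step. Python 3.11.15, numpy 2.4.6, pandas 2.3.3, scipy 1.17.1 and matplotlib 3.10.9 were used. The overlap and variance calculations were checked on simulated data. Members, groups and measures were chosen with earlier results of these data known. Regions named in the text follow a rule: the largest and smallest difference, the smallest p-value of each class among members with at least 20 cytosines, the regions at the edges and the longest run. Depth is unknown. Alternatives were a p-value below 0.001, a difference of at least 0.2, at least 10 cytosines, a CK level from 0.12 to below 0.18, an overlap of 50% of the length, means, and merging within 100 bp. Comparison at equal numbers of cytosines was added after seeing the data. Sequence and annotation of MSU7.0 were not used here, so no sequence, gene or GpC content is given.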

Additional observations from a re-analysis of the deposited data

How the results depend on the processing

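Of 118 values under the alternatives set out at the start, 41 moved within the interval of the main value (counts within 1.5 times), 76 moved further and 1 changed sign. Shares and medians of the members had 95% binomial intervals. The 60 differences between groups had limits combined from the separate intervals of both groups, which are wider than 95%. The covered length had an approximate interval from the number of members. The intervals are narrow at these numbers of regions. The cause of these moves was not tested.

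With a p-value below 0.001, the members had a median treated level of 0.431, a difference of 0.293, a gained share of 0.340 and a variance share of 0.515, shared bases with CG and CHG hyper-DMRs in 18.6% and 38.2% and covered 7.50% of the length. With a minimum difference of 0.2 these were 0.453, 0.315, 0.364, 0.528, 19.6%, 39.7% and 6.43%, with 34.8% for CG and 1.125% for CHG hypo-DMRs. With at least 10 cytosines, the gained share was 0.333. With CK levels from 0.12 to below 0.18, there were 35162 members, a difference of 0.280, a gained share of 0.328, a variance share of 0.502, shares of 19.02% and 38.3% with CG and CHG hyper-DMRs, 31.6%, 0.9499% and 1.38% with CG, CHG and CHH hypo-DMRs, and 4.36% of the length. An overlap of 50% of the length gave 6.55% and 17.8% for CG and CHG hyper-DMRs and 17.6%, 0.433% and 0.503% for CG, CHG and CHH hypo-DMRs. Means over regions were 0.440, 0.302, 0.349 and 0.510 for the treated level, difference, gained share and variance share, and weighted by cytosines 0.419, 0.279, 0.324 and 0.4998.

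The sign changed for the share with CG hypo-DMRs, members minus regions below 0.1, which was 0.356 percentage points at a minimum difference of 0.2 and, in the comparison at equal numbers of cytosines chosen after seeing the data, 15.4 at 20 to 39 and 6.59 at 40 to 59, against -0.230 in the main comparison and -13.2, -21.0 and -12.9 in the 3 higher steps up to 119 cytosines. There it also changed for CHG hyper-DMRs (0.0596 at 60 to 79, 14.4 at 80 to 99 and 7.70 at 100 to 119), for CG hyper-DMRs (4.31, 12.5, 10.99 and 5.12 from 40 to 59 up to 100 to 119) and, against regions from 0.2 up, for CHH hypo-DMRs (-0.157 at 100 to 119). The lower treated level of members kept its direction against both groups under each alternative run.

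No paired analysis was possible because there is only 1 library per condition. The share in genes and the GpC share were not run, since they need the annotation and sequence of MSU7.0, and depth could not be varied.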
